A study of Drosophila melanogaster with 6 samples.

Results

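The nuclear serine tRNAs of *Drosophila melanogaster* were examined in larval brains rich in neuroblasts and in larval brains rich in neurons. They were taken as every nuclear row of the deposited tRNA table whose name begins with Ser, whatever the anticodon. This gave 8 isodecoders, the distinct mature sequences found within each anticodon, out of 84 nuclear isodecoders and 106 tRNAs in all. No filter on low values was applied, and all 8 had a value in both groups.

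tRNA was sequenced by hydro-tRNAseq, in which partial alkaline hydrolysis breaks tRNAs into short fragments before adaptor ligation. The neuroblast group comprised 3 samples of brains from L3 larvae of genotype insc-Gal4>UAS-aPKC_caax, in which the insc driver expresses a membrane-targeted atypical protein kinase C in neuroblasts and produces ectopic neuroblasts. The neuron group comprised 3 samples of brains from wild-type Oregon R larvae of the same stage, and all larvae were cultured at 25 °C. Both groups were whole brains, so neuroblast-biased brains still hold other cells, wild-type brains still hold neuroblasts, and genotype and cell composition cannot be told apart. The table holds tRNAs only, so the labelled cell types could not be checked against marker genes. A different number of cells of a type and a different amount of tRNA per cell cannot be told apart in these samples.

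For each tRNA the table gives 1 value per group, the authors' mean TMM, a read count normalized by the trimmed mean of M-values and corrected for batch. No value per sample was analysed, so no replicate error, interval or test stands beside any difference below, and library depths are not known. The order of levels is the order of these means, and whether neighbours in that order differ beyond their spread cannot be said. How fully the reads of each tRNA were recovered and mapped was not analysed, so different tRNAs are compared by read signal only. Differences are given as the log2 ratio of neuroblast over neuron, recomputed from the means. The median log2 ratio of the 84 nuclear isodecoders was −0.27, so setting that median to 0 adds 0.27 to every log2 ratio.

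Serine is encoded by 6 codons in 2 blocks, the 4-codon box UCU, UCC, UCA and UCG and the separate pair AGC and AGU, and no single base change links the blocks. Nuclear serine tRNAs are charged by seryl-tRNA synthetase, which recognizes their long variable arm rather than the anticodon, so tRNAs with very different anticodons share 1 enzyme. Anticodons are written here as in the table, with T for U. Ser-AGA, whose leading adenosine is read as inosine after modification, pairs with UCU and UCC. Inosine can also pair with the A of UCA, which the codon supply calculated below nearly excludes. Ser-TGA pairs with UCA and by wobble with UCG, Ser-CGA with UCG, and Ser-GCT with AGC and by wobble with AGU.

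The 8 isodecoders correspond to 20 of the 290 nuclear tRNA genes that RefSeq annotates on Release 6. All 20 genes are 82 bp long, so levels of serine isodecoders are compared with each other without dividing by length. Of the other 270 tRNA genes, 235 are shorter than 80 bp, as most tRNAs have a short variable loop. A name that ends in X stands for several genes of identical mature sequence. Ser-AGA-2-X has 5 genes, Ser-AGA-3-X has 2 and Ser-AGA-1-1 has 1. Ser-CGA-1-X has 4 genes, Ser-GCT-2-X has 5 and Ser-GCT-1-1 has 1. Ser-TGA-1-1 and Ser-TGA-2-1 have 1 gene each.

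Of the 20 genes, 8 lie on chromosome X between 14015045 and 14117810, a stretch of 102766 bp that also holds 5 Arg-TCG genes. This stretch has all genes of Ser-AGA-1-1 and Ser-AGA-3-X, 2 genes of Ser-AGA-2-X and 3 of Ser-CGA-1-X. In RefSeq, the older name of the Ser-CGA-1 genes is ser4 and that of the Ser-AGA-2 genes is ser7. Ser-AGA-1-1 is also called 474 and the Ser-AGA-3 genes 774. These are the names of hybrid genes that carry, at each base that tells ser4 from ser7, the base of the one or of the other. Multi-mapped reads were split between references, so where these hybrids share reads with the far more abundant Ser-AGA-2-X and Ser-CGA-1-X, the values of the low rows are uncertain. The same limit holds for Ser-CGA-1-X where it shares reads with Ser-AGA-2-X. It also holds for the members of Ser-TGA and of Ser-GCT, where they share reads with each other. How alike the sequences are was not analysed here.

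Outside chromosome X, Ser-AGA-2-X has a pair of genes on 2L at 3169582 to 3169663 and 3173003 to 3173084, and a gene on 3L from 5342084 to 5342165. The remaining Ser-CGA-1 gene is found at 19414598 to 19414679 of 2R, inside the protein-coding gene *hts*. All 6 Ser-GCT genes are on 3R, and 4 of them form a cluster of 1126 bp from 22396528 to 22397653 that holds no other tRNA. Ser-GCT-1-1, from 22397180 to 22397261, stands inside this cluster between copies of Ser-GCT-2-X. Another Ser-GCT-2 gene, from 10278054 to 10278135, lies within the span of *Nuak*. These 2 genes were the only serine tRNA genes within the span of another annotated gene, and the annotation used gives spans without exons or strand.

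The summed mean TMM of the 8 serine isodecoders reached 968333 in neuroblasts against 771421 in neurons, a log2 ratio of 0.33 and a difference of 196912. With the nuclear median set to 0 the log2 ratio was 0.60. Serine tRNAs made up 7.20% of the summed nuclear TMM in neuroblasts and 4.66% in neurons. With each isodecoder divided by its gene length, these shares were 6.51% and 4.22%. Gene length here and below is the annotated span, introns included, so it can exceed the length of the mature tRNA in other classes. Tyr genes, for example, span up to 186 bp and Leu genes up to 127 bp. Of 22 amino acid classes, with initiator Met and selenocysteine kept apart, 16 had a lower and 6 a higher sum in neuroblasts on the values as deposited. These counts depend on the scaling, since setting the nuclear median to 0 turns several of the lower classes higher. In the order of the log2 ratios, which scaling does not change, the serine sum was the second, below selenocysteine, at 0.70. The selenocysteine tRNA, a single gene, is itself first charged with serine by the same synthetase.

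The higher sum was made by 2 isodecoders. Ser-AGA-2-X was 121778 higher in neuroblasts, which is 61.8% of the difference of the sums, and Ser-TGA-1-1 was 97005 higher, or 49.3%. Ser-CGA-1-X was lower, and its difference was −8.66% of that of the sums. The other 5 isodecoders each changed the sum by less than 2% of that difference.

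**Figure D1:**
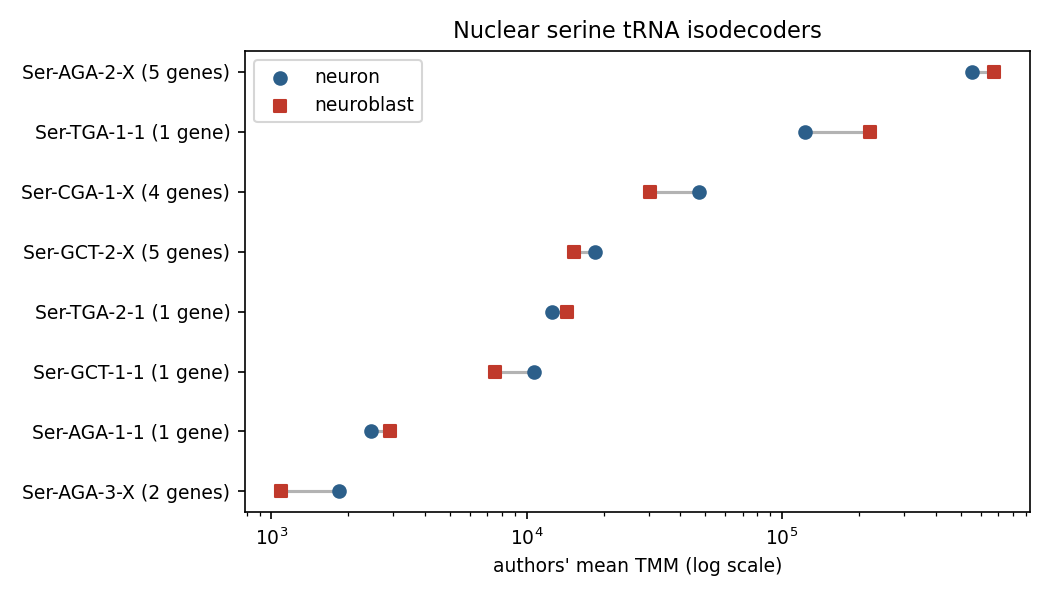
Authors' mean TMM (log scale) of the 8 nuclear serine isodecoders, with neuroblast as squares and neuron as circles, 1 mean per group and no error available. Levels run from 1086 for Ser-AGA-3-X to 676316 for Ser-AGA-2-X in neuroblasts, and the widest gap of an abundant isodecoder is that of Ser-TGA-1-1.

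Members did not all lie on the same side. On the values as deposited, 4 of the 8 isodecoders were higher in neuroblasts, both Ser-TGA tRNAs with Ser-AGA-2-X and Ser-AGA-1-1, and 4 were lower, both Ser-GCT tRNAs with Ser-CGA-1-X and Ser-AGA-3-X. Of all 84 nuclear isodecoders, 27 were higher and 57 lower. The median log2 ratio of the serine isodecoders was −0.04, against −0.27 for all nuclear isodecoders. A log2 ratio of at least 0.5 was found for 1 serine isodecoder, and for 8.33% of all nuclear isodecoders. A log2 ratio of −0.5 or less was found for 3 serine isodecoders, and for 33.3% of all. These 3 were Ser-AGA-3-X, Ser-CGA-1-X and Ser-GCT-1-1, the last at −0.51. With the nuclear median set to 0 these counts turned to 3 higher, against 20.2% of all, and 0 lower, against 14.3%.

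**Figure D2:**
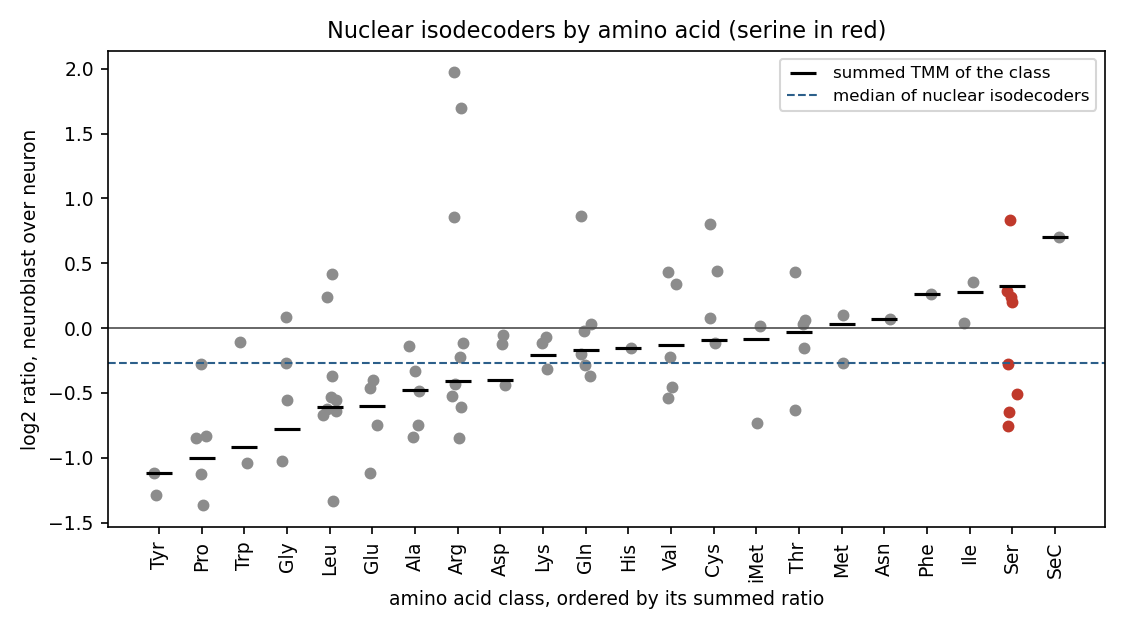
Log2 ratio of neuroblast over neuron for each of the 84 nuclear isodecoders (points, serine in red), grouped by amino acid. Black marks give the ratio of the summed TMM of a class, the dashed line the nuclear median of −0.27. Serine points run from −0.76 to 0.84, and the serine sum, at 0.33, is the second from the right.

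The Ser-AGA pool, the tRNAs for UCU and UCC, summed to 680313 TMM in neuroblasts and 558834 in neurons, a log2 ratio of 0.28, or 0.55 with the nuclear median set to 0. It rested almost wholly on Ser-AGA-2-X, with a mean TMM of 676316 in neuroblasts and 554538 in neurons, or 99.4% and 99.2% of the pool. This isodecoder had the sixth place among the 84 nuclear isodecoders in neuroblasts and the seventh in neurons. Divided by gene length, the places were the seventh and the eighth.

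The remaining Ser-AGA rows were the hybrid genes. Ser-AGA-1-1 had a mean TMM of 2910 in neuroblasts and 2458 in neurons, a log2 ratio of 0.24. Ser-AGA-3-X had 1086 in neuroblasts, the lowest value of any nuclear isodecoder, and 1837 in neurons, a log2 ratio of −0.76. Ser-AGA-2-X exceeded Ser-AGA-1-1 by 232 times in neuroblasts and 226 times in neurons, and Ser-AGA-3-X by 622 and 302 times. The log2 ratio of Ser-AGA-3-X had the opposite sign to that of the pool, with a difference of −751 TMM, neuroblast minus neuron. When the log2 ratios of the 3 Ser-AGA isodecoders are averaged, so that each counts alike, the result is −0.076, opposite in sign to the ratio of the summed pool.

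The Ser-TGA pool, the tRNAs for UCA, had the highest log2 ratio of all 45 summed nuclear anticodon pools, at 0.79. With the nuclear median set to 0 it was 1.06. When the log2 ratios of its isodecoders were averaged instead, it was 0.52, below selenocysteine, a pool of 1 isodecoder at 0.70. The Ser-TGA pool was thus first with summed isodecoders but not with averaged log2 ratios. Its main member, Ser-TGA-1-1, had a mean TMM of 220527 in neuroblasts and 123522 in neurons, a log2 ratio of 0.84 and a ratio of 1.79. Ser-TGA-2-1 had 14399 and 12522, a log2 ratio of 0.20. Each member is a single gene, and the genes lie 480 bp apart on 2R, Ser-TGA-1-1 from 23072019 to 23072100 and Ser-TGA-2-1 from 23072581 to 23072662. Ser-TGA-1-1 exceeded its neighbour 15.3 times in neuroblasts and 9.86 times in neurons, and the log2 ratios of the 2 genes differed by 0.63.

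Among the 38 nuclear isodecoders with a single gene, Ser-TGA-1-1 had the highest mean TMM in neuroblasts. In neurons it was the sixth of the 38, and after division by gene length the first and the seventh. Ser-TGA-2-1 was in the middle of the same 38, at place 22 in neuroblasts and 23 in neurons.

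Ser-CGA, the tRNA that matches UCG exactly, is a pool of 1 isodecoder. Ser-CGA-1-X had a mean TMM of 30296 in neuroblasts and 47351 in neurons, a log2 ratio of −0.64, or −0.38 with the nuclear median set to 0. Neurons thus had 1.56 times the mean TMM of neuroblasts. Ser-CGA-1-X and Ser-TGA-1-1, which can both serve UCG, stood on opposite sides of the nuclear median. The Ser-TGA pool was 7.75 times the Ser-CGA pool in neuroblasts and 2.87 times in neurons.

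Ser-GCT, the only serine tRNA pool for AGC and AGU, summed to 22799 in neuroblasts and 29192 in neurons, a log2 ratio of −0.36. Ser-GCT-2-X had 15301 in neuroblasts and 18549 in neurons, a log2 ratio of −0.28. Ser-GCT-1-1 had 7498 and 10643, a log2 ratio of −0.51. With the nuclear median set to 0 the pool was at −0.09 and Ser-GCT-2-X at −0.01. Scaling to equal sums of the nuclear tRNAs other than serine put the pool at −0.019 and turned Ser-GCT-2-X to 0.060. The direction of Ser-GCT-2-X and the size of the pool's log2 ratio therefore depend on the scaling. Of the Ser-GCT pool, Ser-GCT-2-X made up 67.1% in neuroblasts and 63.5% in neurons.

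**Figure D3:**
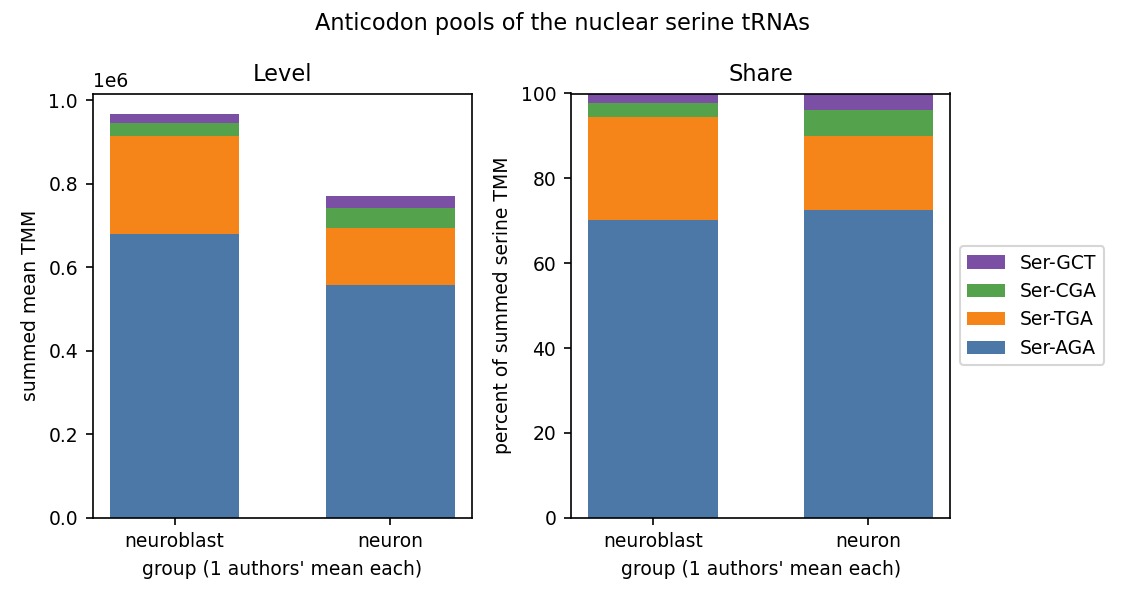
Left, summed mean TMM of the 4 serine anticodon pools, and right, their shares of the serine sum in percent, for neuroblast and neuron, 1 authors' mean per group and no error available. Ser-TGA takes 24.3% of the neuroblast and 17.6% of the neuron bar, while Ser-CGA and Ser-GCT are thinner in the neuroblast bar.

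Shares within the family do not depend on how the groups were scaled. Ser-AGA took 70.3% of the serine sum in neuroblasts and 72.4% in neurons, and Ser-TGA took 24.3% and 17.6%. Ser-CGA took 3.13% and 6.14%. Ser-GCT took 2.35% in neuroblasts and 3.78% in neurons. In both groups the order was Ser-AGA, Ser-TGA, Ser-CGA and Ser-GCT, and the share of Ser-TGA alone was larger in neuroblasts. The ratio of Ser-AGA to Ser-TGA was 2.90 in neuroblasts and 4.11 in neurons.

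For the balance of the codon blocks, the 3 pools of the 4-codon box were set against Ser-GCT. The box summed to 945534 TMM in neuroblasts and 742229 in neurons, a log2 ratio of 0.35, while Ser-GCT was at −0.36. The log2 ratios differed by 0.71, and the box exceeded Ser-GCT 41.5 times in neuroblasts and 25.4 times in neurons. Without Ser-AGA-2-X, the most abundant isodecoder, Ser-GCT took 7.81% in neuroblasts and 13.5% in neurons, and the log2 ratios differed by 0.88.

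Leucine and arginine are the other amino acids with 6 codons, each with a 4-codon box and a separate pair. The tRNAs of the separate pair made up 16.8% of the leucine sum in neuroblasts and 18.3% in neurons. For arginine they made up 29.0% and 26.3%. Ser-GCT thus held a smaller share of its family than the corresponding tRNAs of either family in both groups, with 6 of the 20 serine genes, against 8 of 22 for leucine and 6 of 26 for arginine. The log2 ratio of the box exceeded that of the pair by 0.15 for leucine and fell short of it for arginine, where the difference was −0.19, against 0.71 for serine. These differences have no test.

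Gene number and mean TMM were far from proportional in the family. Per annotated gene, Ser-TGA-1-1 had 220527 TMM in neuroblasts and 123522 in neurons, and Ser-AGA-2-X had 135263 and 110908. Ser-CGA-1-X had 7574 and 11838 per gene, and Ser-GCT-2-X had 3060 and 3710. The median over all nuclear isodecoders was 30264 in neuroblasts and 42713 in neurons. In neuroblasts Ser-TGA-1-1 had the highest level per gene of all 84 isodecoders, also per base of gene length. In neurons it was at place 7 per gene and at place 11 per gene and base. How much each gene of an X name contributes is not known, because their mature sequences are identical.

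Ser-AGA-2-X and Ser-GCT-2-X both have 5 genes, yet 676316 TMM stood against 15301 in neuroblasts and 554538 against 18549 in neurons. Among the 32 nuclear isodecoders with 4 or more genes, Ser-GCT-2-X had the third lowest and Ser-CGA-1-X the fourth lowest mean TMM in both groups, with and without division by gene length. Ser-GCT-1-1, a single gene within the Ser-GCT cluster, had 7498 TMM in neuroblasts and 10643 in neurons, against 3060 and 3710 per gene for Ser-GCT-2-X, averaged over all 5 of its genes. Any reads that these isodecoders share were split between them, which makes this comparison per gene uncertain.

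**Figure D4:**
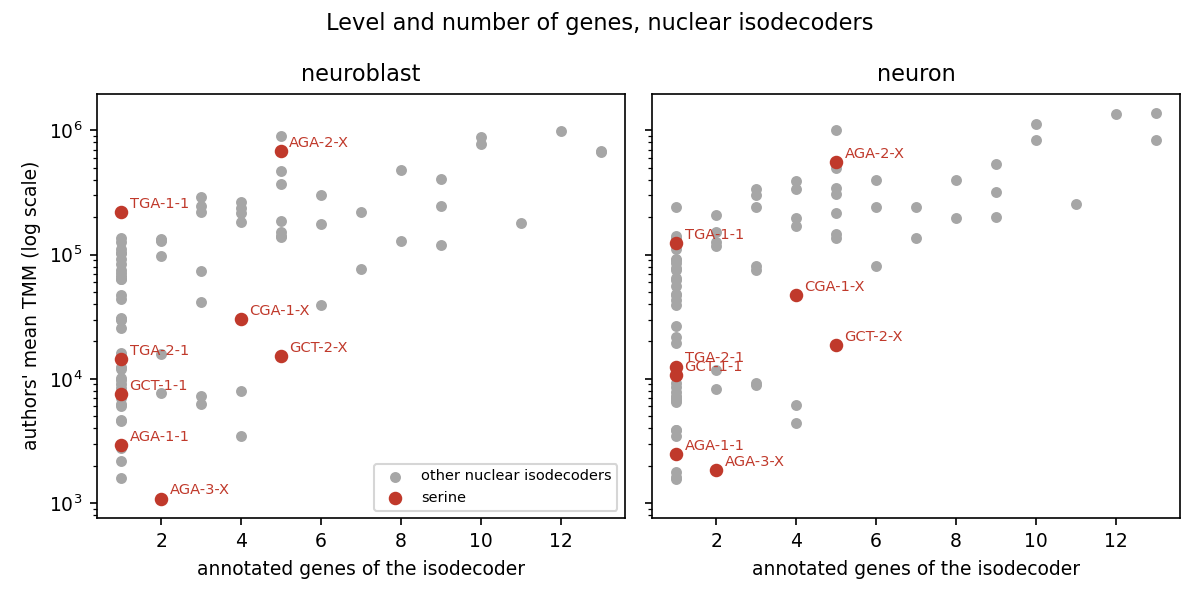
Authors' mean TMM (log scale) against the number of annotated genes for the 84 nuclear isodecoders in neuroblasts and neurons, serine in red. Ser-TGA-1-1 is the highest of the single-gene isodecoders in neuroblasts, and Ser-GCT-2-X, with 5 genes, lies at 15301 in neuroblasts and 18549 in neurons, far below Ser-AGA-2-X with as many genes.

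The supply of each serine codon was calculated from the summed pools with the formula of the tRNA adaptation index, which adds the tRNAs that read a codon and lowers wobble pairs by a penalty. The penalties of the original index were used, 0.41 for G:U, 0.28 for I:C, 0.68 for U:G and nearly full exclusion of I:A pairs. UCA had a calculated supply of 234994 in neuroblasts and 136100 in neurons. It came almost wholly from Ser-TGA, and a larger weight for I:A pairs, which would add Ser-AGA, was not tried. Relative to UCU, the best supplied serine codon in both groups, UCA stood at 0.345 and 0.244. AGC stood at 0.0335 and 0.0522, and AGU at 0.0198 and 0.0308. UCC is fixed at 0.72 by its penalty, since UCU and UCC are read by the same tRNA.

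UCG is the serine codon that draws on both a lower and a higher pool. Its calculated supply came to 105472 in neuroblasts against 90885 in neurons, with a log2 ratio of 0.21. Wobble by Ser-TGA gave 71.3% of it in neuroblasts and 47.9% in neurons, and the remainder came from Ser-CGA. The direction rests on these choices: without U:G pairs the log2 ratio was −0.64, and with pools averaged over isodecoders it was −0.026.

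**Figure D5:**
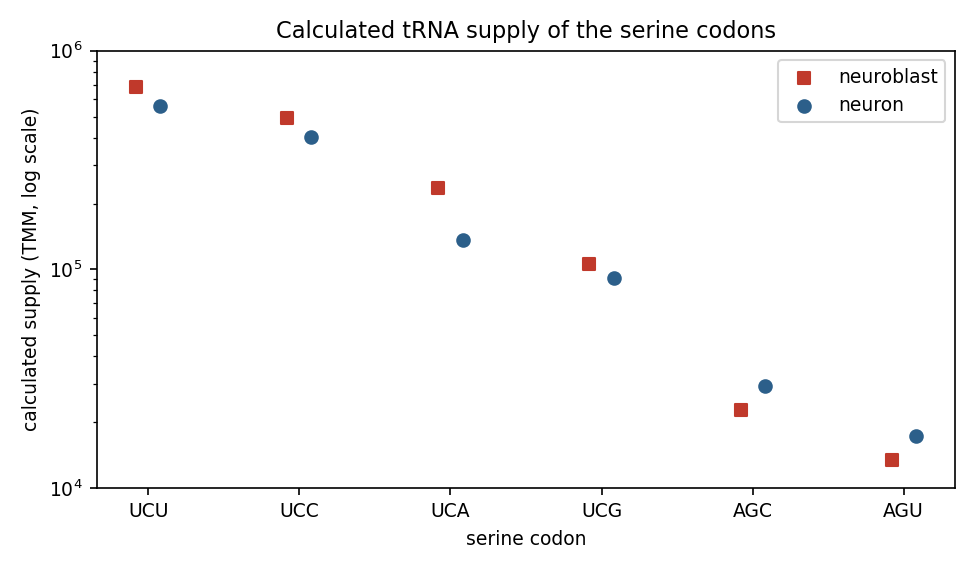
Calculated supply (TMM after wobble penalties, log scale) of the 6 serine codons in neuroblasts (squares) and neurons (circles), from the summed pools. On the values as deposited, codons of the UCN box lie higher in neuroblasts and AGC and AGU lie lower. UCA shows the widest gap on this scale, 234994 against 136100, with I:A pairs nearly excluded. With the nuclear median set to 0, the log2 ratio of Ser-GCT, which serves AGC and AGU, is −0.09. UCG turns to the opposite direction without U:G pairs or with averaged pools.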

How the data were processed

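Hydro-tRNAseq libraries were made from 3 samples per group, as the labels give them. According to the methods of the study, the authors trimmed reads (cutadapt), mapped them to collapsed mature tRNA sequences with CCA added (subread-align), kept alignments above a mapping quality, and obtained counts with featureCounts, where a read with several matches was shared out among them. TMM normalization and batch correction in NOISeqBio followed, and the values were averaged per group. The batches are not given in the sources used here, and the study gives more than 1 larval age. The deposited mean TMM is a normalized signal. Log2 fold change, theta, probability and q-value columns of the authors' own comparison were not used.

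Ratios, sums, shares and codon supply were computed in Python 3.11.15 with pandas 2.3.3 and numpy 2.4.6, with no pseudocount, and plotted with matplotlib 3.10.9. Formulas were tested on simulated data. All 84 nuclear isodecoders were matched by name to RefSeq genes. All serine isodecoders are named. Outside the family, the 3 isodecoders closest in log2 ratio to Ser-AGA-2-X and to Ser-TGA-1-1, the Leu and Arg sums and the mitochondrial serine tRNAs were named by rule. Selenocysteine, *hts* and *Nuak* were named after their values or positions were seen. Members and lists were chosen with earlier results of these data known. Alternatives were other scalings, pseudocount, filter, fold size and ways of combining isodecoders.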

Additional observations from a re-analysis of the deposited data

How the results depend on the processing

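No paired analysis was possible because the table holds 1 mean per group, and for the same reason leaving out each replicate was not run. With no replicate spread, a log2 ratio was compared by its sign and its side of 0.5, and a share or relative supply by a change of more than 1.5 times. The precision and the depth behind each mean are unknown.

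With the nuclear median set to 0, with equal sums of all tRNAs and with equal sums of nuclear tRNAs other than serine, the log2 ratio of the serine sum was 0.60, 0.59 and 0.67, that of the Ser-AGA pool 0.55, 0.55 and 0.62, and that of Ser-CGA −0.38, −0.38 and −0.31. Serine isodecoders past 0.5 then numbered 3, 3 and 4 higher and 0 lower. With the nuclear median set to 0, 20.2% of all nuclear isodecoders were higher and 14.3% lower by that size. The share of all was not counted for the scalings to equal sums, so these counts are not read as a trait of serine. On the TMM as deposited, 0 serine isodecoders were past a log2 ratio of 1 in either direction. Among the others, Arg-TCT-3-1 at 1.97 and Pro-CGG-1-1 at −1.37 were past it, and the share of all nuclear isodecoders was not counted. The third scaling reversed Ser-GCT-2-X to 0.060. Averaging on the log2 scale reversed Ser-AGA to −0.076 and put Ser-TGA at 0.52. Without Ser-AGA-2-X the Ser-GCT share was 7.81% in neuroblasts and 13.5% in neurons. The relative supply of UCA was 0.518 in neuroblasts and 0.365 in neurons with averaged pools. The relative supply of UCG was 0.299 in neuroblasts and 0.371 in neurons with averaged pools, and 0.0445 and 0.0847 without U:G pairs. AGU without a G:U penalty had 0.0335 and 0.0522. The log2 ratio of the UCG supply, tried after the data were seen, reversed to −0.026 with averaged pools and −0.64 without U:G pairs. A pseudocount of 100 and a minimum mean TMM of 5000 kept the sign of every serine pool and of the serine sum. Each left 2 serine isodecoders lower by at least 0.5, since the pseudocount took Ser-GCT-1-1 to −0.4996 and the minimum removed Ser-AGA-3-X. The share of all nuclear isodecoders lower by that size was 33.3% as deposited and was not counted under these settings.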

Other observations

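The mitochondrial genome encodes its own serine tRNAs, which serve the organelle's ribosomes. Mitochondrial Ser-GCT had a mean TMM of 77164 in neuroblasts and 49712 in neurons, a log2 ratio of 0.63. Mitochondrial Ser-TGA had 9055 and 6581, a log2 ratio of 0.46. The median over the 22 mitochondrial tRNAs was 0.79. Nuclear Ser-GCT, with 22799 and 29192, had the lower sum in neuroblasts on the values as deposited. With the nuclear median set to 0 its log2 ratio was −0.09.

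The nuclear isodecoders of other amino acids with the log2 ratio closest to that of Ser-AGA-2-X, over the 2 group means, were Phe-GAA-1-X at 0.26, Leu-TAA-3-1 at 0.24 and Val-AAC-2-X at 0.34. For Ser-TGA-1-1 they were Arg-TCG-2-X at 0.85, Gln-TTG-2-1 at 0.86 and Cys-GCA-2-1 at 0.80. The mean TMM of these last 3 in neuroblasts was 7973, 11914 and 2749, against 220527 for Ser-TGA-1-1.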
